A study of Mus musculus with 4 samples.

Results

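The genes of major histocompatibility complex (MHC) class II antigen presentation were followed through immune cells, sorted for CD45, from the thalamus and from the HPC (hippocampus) of injured mice. The group held 10 of the 32285 genes measured, taken by their symbols from a fixed list: the class II chains H2-Aa, H2-Ab1 and H2-Eb1, the peptide exchange chains H2-DMa and H2-DMb1, the invariant chain Cd74, the transactivator Ciita, and the costimulatory genes Cd86, Cd80 and Cd40. All 10 were measured in each of the 8 deposited matrices. The samples were 4 tagged sets of cells from the thalamus and 4 from the HPC of C57B6/J mice, all with cortical brain injury, so that the sole contrast between samples was the region and no uninjured mouse entered. Live CD45-positive cells of the injured hemispheres had been sorted, those of 4 mice pooled for each region, and run as a single droplet library per region, and the region cannot be told apart from its library. The labels used here give neither age nor time after injury. Each tagged set was taken as 1 mouse, which the labels do not state. If sets are not separate mice, the p-values below measure the spread between these sets alone, which may be technical.

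Class II molecules are pairs of an alpha and a beta chain that show peptides from engulfed proteins to CD4 T cells. Cd74 escorts the new pairs and fills their groove, cathepsins cut Cd74 down in the endosome, and the DM pair, made by H2-DMa and H2-DMb1, swaps the last fragment of it for a peptide. Ciita is the master switch of these genes and is induced by interferon-gamma, while the RFX and NF-Y complexes bind their promoters at the X and Y boxes. Cd80 and Cd86 engage Cd28 on the T cell, and Cd40 receives the T cell signal Cd40lg. Dendritic cells and B cells carry class II at rest, whereas resting microglia carry little. C57BL/6 mice make the A pair (H2-Aa with H2-Ab1) and lack a working E alpha chain, the partner of H2-Eb1.

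Promoters are shown for chains whose levels are followed below, since class II genes are known for a shared layout of control boxes. RefSeq promoter sequences (GRCm38.p6) of 5 members were searched, and 3 of them are printed as the 250 bases before the RefSeq start site, 5′ to 3′ along the gene's strand. Capitals mark matches to the X box letters AACNGATG and the Y box letters TGATTGG, which were searched on both strands and do not overlap each other here. The letters were written down after the promoters had been read.
H2-Eb1, chr17:34305617-34305866, plus strand: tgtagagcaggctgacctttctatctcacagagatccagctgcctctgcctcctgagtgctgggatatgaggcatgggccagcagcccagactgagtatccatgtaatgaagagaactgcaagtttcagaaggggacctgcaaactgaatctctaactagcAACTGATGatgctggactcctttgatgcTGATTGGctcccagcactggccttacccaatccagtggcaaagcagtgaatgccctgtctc
H2-DMb1, chr17:34152941-34153190, plus strand: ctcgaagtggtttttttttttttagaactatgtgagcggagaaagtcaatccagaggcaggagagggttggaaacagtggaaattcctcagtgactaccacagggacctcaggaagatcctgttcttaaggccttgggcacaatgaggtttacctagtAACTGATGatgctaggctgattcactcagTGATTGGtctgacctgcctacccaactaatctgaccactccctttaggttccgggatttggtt
H2-Aa, chr17:34287824-34288073, minus strand: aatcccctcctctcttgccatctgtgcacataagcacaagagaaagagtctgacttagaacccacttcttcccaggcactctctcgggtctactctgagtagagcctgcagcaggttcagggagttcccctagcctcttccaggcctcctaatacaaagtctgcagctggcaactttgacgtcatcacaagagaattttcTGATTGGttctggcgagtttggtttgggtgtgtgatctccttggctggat
H2-Eb1 held the X box at position -89 and the Y box at -61 from the start site, and H2-DMb1 held them at -92 and -63. H2-Aa held the Y box at -50 and no match to the X box letters. The X box letters occurred in 652 of 32851 promoters of this length (1.99%), the Y box letters in 2375 (7.23%), and both in 48 (0.146%). Neither was matched in the promoters of Cd80 and H2-DMa. Among the related chains, H2-DMb2 held the boxes at -121 and -92 and H2-Eb2 at -130 and -102, whereas H2-Oa and H2-Ob held the Y box, at -45 and -59, and no match to the X box letters. A match describes letters and not a bound site, and no match says only that these letters were not in the window. By GENCODE (GRCm38), the protein-coding genes H2-DMa (34119541 to 34139101), H2-DMb1 (34153072 to 34160230), H2-Ab1 (34257689 to 34269419), H2-Aa (34282744 to 34287823) and H2-Eb1 (34305867 to 34316674) lay along chromosome 17, Ciita (10480059 to 10528418), Cd86 (36603869 to 36666081) and Cd80 (38455561 to 38496335) on chromosome 16, and Cd40 (165055627 to 165072948) on chromosome 2. The antisense transcript Gm20513 (34293073 to 34308070 on chromosome 17) overlapped H2-Eb1, and the strand handling of the counting was not stated. H2-DMb1 has a near-identical neighbour, H2-DMb2, so reads may have been split between them.

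Of 29190 cells, 24939 were kept, those with between 200 and 7500 genes seen and no more than 2% of counts from mitochondrial genes. They held 9789875 to 26636526 UMIs (unique molecular identifiers, each a molecule counted once) per set, with medians of 4261.5 to 4657 UMIs per cell. Cells were placed in classes and microglial states by marker genes that include none of the members, which put 23592 cells in a class, 96.8% of them in a cluster of the same class. The names below are "-like" since they rest on markers. Homeostatic-like cells were high in resting microglial genes, DAM-like cells in genes of disease-associated microglia (DAM), and interferon-like cells in interferon-induced genes. These states are ranges of a score, and of 18964 microglia-like cells 562 lay within 0.1 of the DAM limit, 3082 of the homeostatic limit and 274 of the interferon limit. Levels are UMIs per 10,000 UMIs of the same cells, and levels are compared for a gene across cells, not between genes. Microglia-like cells poor in the nuclear RNA Malat1, a sign of RNA quality, made up 4.65% to 16.0% of such cells per thalamus set, against 0.154% to 1.8% per HPC set.

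The class II chains and Cd74 were most abundant in dendritic-like cells, followed by macrophage- or monocyte-like cells, and were far lower in every microglial state. The means of dendritic-like cells exceeded those of DAM-like cells, the highest microglial state, in H2-Aa, H2-Ab1, H2-Eb1 and Cd74 without overlap between sets. H2-Aa stood at 101 ± 18.1 UMIs per 10,000 (SD, n = 4 sets with at least 20 cells) in dendritic-like cells, at 102, 111 and 114.5 in thalamus sets 1, 2 and 4 and at 74.8 in HPC set 1. In macrophage- or monocyte-like cells it was 42.4, 62.6 and 49.8 in the same thalamus sets and 49.3 and 65.5 in HPC sets 1 and 2, a mean of 53.9 ± 9.75 (SD, n = 5). These ranges did not overlap. B-like cells came almost wholly from HPC set 1, where 55 cells held H2-Aa at 16.7 and Cd74 at 70.7. DAM-like cells followed with H2-Aa at 2.78 ± 2.14 (SD, n = 7), then intermediate microglia at 0.956 ± 0.675, interferon-like cells at 0.886 ± 0.778 and T-like cells at 0.860 ± 0.771 (SD, n = 8 each). Neutrophil-like cells stood at 0.927 ± 1.41 (SD, n = 6). Homeostatic-like cells had the lowest mean, 0.217 ± 0.102 (SD, n = 8). From DAM-like cells down, the ranges of neighbours in this order overlapped.

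Cd74 ran likewise, at 246 ± 41.7 (SD, n = 4) in dendritic-like cells, 138 ± 25.1 (SD, n = 5) in macrophage- or monocyte-like cells, 10.99 ± 7.31 (SD, n = 7) in DAM-like cells, 4.04 ± 2.48 in interferon-like cells and 0.909 ± 0.345 in homeostatic-like cells (SD, n = 8 each). Ciita, the transactivator, was 4.58 ± 0.741 (SD, n = 4) in dendritic-like and 1.79 ± 0.860 (SD, n = 5) in macrophage- or monocyte-like cells. In T-like cells it was 0.141 ± 0.0735 (SD, n = 8), and in DAM-like cells it was lower still, at 0.0372 ± 0.0374 (SD, n = 7). The DM chains were spread more evenly over the myeloid cells. H2-DMa was 10.0 ± 1.59 (SD, n = 4) in dendritic-like, 6.21 ± 1.30 (SD, n = 5) in macrophage- or monocyte-like and 2.04 ± 0.128 (SD, n = 8) in homeostatic-like cells, against 0.503 ± 0.167 (SD, n = 8) in T-like cells.

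Of the costimulatory genes, Cd86 and Cd80 did not follow the class II chains across classes. Cd40 did, with its highest levels in dendritic-like and then in macrophage- or monocyte-like cells. Cd86 had its highest means in interferon-like, homeostatic-like and intermediate microglia, at 4.78 ± 0.566, 4.39 ± 0.176 and 4.35 ± 0.169 (SD, n = 8 each), and stood at 3.41 ± 0.635 (SD, n = 7) in DAM-like cells, each range overlapping the next. Macrophage- or monocyte-like cells held Cd86 at 2.17 ± 0.601 (SD, n = 5) and dendritic-like cells at 1.75 ± 0.784 (SD, n = 4), and these overlapped. Cd80 was highest in dendritic-like cells, at 0.917 ± 0.548 (SD, n = 4), and in neutrophil-like cells, at 0.895 ± 0.267 (SD, n = 6), again with overlap, against 0.371 ± 0.0566 (SD, n = 8) in homeostatic-like cells. Cd40 was 0.963 ± 0.293 (SD, n = 4) in dendritic-like and 0.516 ± 0.233 (SD, n = 5) in macrophage- or monocyte-like cells. In microglia it reached 0.193 ± 0.200 (SD, n = 8) in the interferon-like state.

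**Figure D1:**
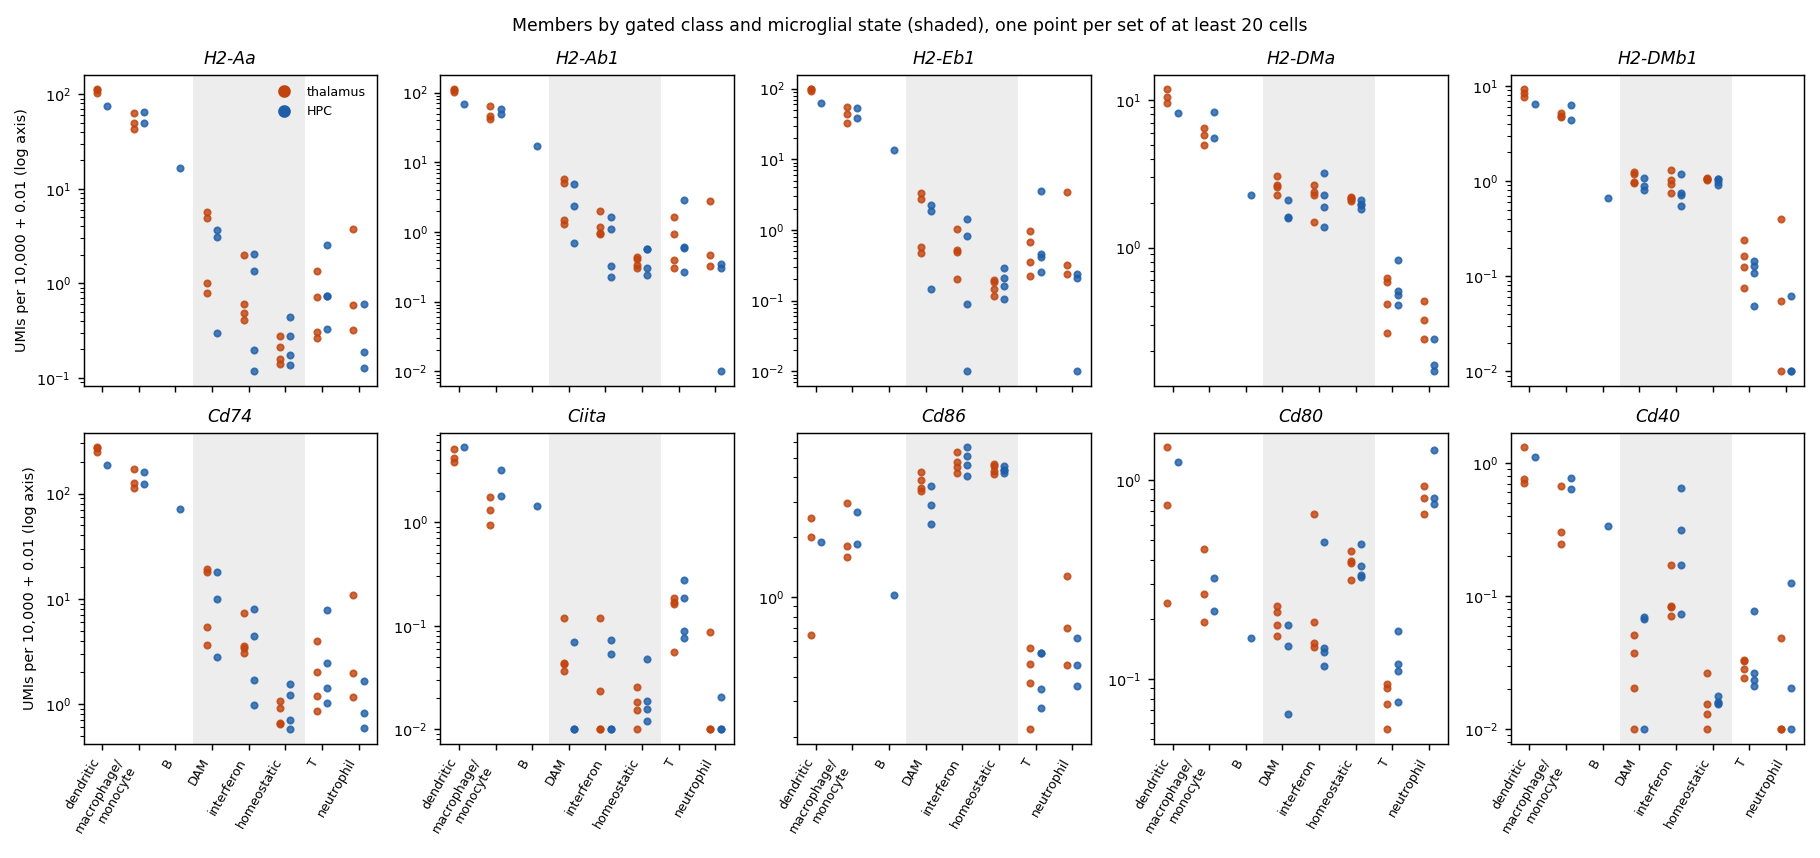
UMIs per 10,000 plus 0.01 (log axis) of the 10 members by gated class and by microglial state (shaded), with 1 point for each set of at least 20 cells, coloured by region. H2-Aa, H2-Ab1, H2-Eb1, Cd74 and Ciita fall steeply from dendritic-like cells to microglia, whereas Cd86 is higher in the microglial states than in dendritic-like cells, where it was 1.75 ± 0.784 (SD, n = 4).

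Dendritic-like cells were not uniform in these genes. The 37 cells with a UMI of Ccr7, the receptor that guides mature dendritic cells to lymph nodes and a marker used in the gate, held Cd80 at 4.56 and Cd40 at 2.04 UMIs per 10,000, against 0.458 and 0.755 in the 212 cells without one. Cd86 was 3.41 and 1.62. The presentation genes ran the other way, with H2-Aa at 61.6 and 98.1, H2-DMa at 2.62 and 10.2, H2-DMb1 at 1.15 and 8.22 and Ciita at 2.2 and 4.82. These values are pooled over sets, and H2-Aa was the higher in cells with Ccr7 in 3 of the 7 sets that held such cells, on 1 to 3 cells each. The cells were split on a marker of their own, so these values are a description.

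T-like cells served as a reference, and class II UMIs at or below their level were not read as expression. That level differed between sets of a single library. In thalamus set 1 it rested on 234 H2-Aa UMIs in 7.35% of 449 cells, and in HPC set 3 on 38 UMIs in 12.12% of 33 cells. Free RNA and a few cells rich in class II may both add to it, which was not tested. T-like H2-Aa ran from 0.253 (thalamus set 3) to 2.56 (HPC set 3, 33 cells), with a median of 0.708 over 8 sets. All 8 homeostatic-like values, 0.127 to 0.428, lay below that median, and each lay below the T-like value of its own set. Homeostatic-like H2-Aa is therefore not read as expression. In set 1 of the thalamus T-like cells held 1.33 and DAM-like cells 0.771, and in HPC set 1 they held 0.316 and 0.288, so DAM-like H2-Aa did not exceed the T-like level there, nor did Cd74 in thalamus set 1 (3.63 against 3.998). By share of cells, without matching for depth, the order was the other way. H2-Aa was seen in 15.7% of DAM-like and 7.35% of T-like cells of thalamus set 1, and in 9.68% and 5.29% in HPC set 1. Cd74 was seen in 51.15% and 22.72% in thalamus set 1. In thalamus sets 2, 3 and 4 the level of DAM-like H2-Aa did exceed the T-like level, at 4.94, 1.00 and 5.67 against 0.7, 0.253 and 0.293, and likewise in HPC sets 2 and 4, at 3.69 and 3.08 against 0.716 and 0.717. Ciita in DAM-like cells rested on 13, 5, 4 and 31 UMIs in the thalamus sets and 0, 0 and 1 in HPC sets 1, 2 and 4, and its level stayed below that of T-like cells of the same set in each of these 7. Cd86 and the DM chains stood clear of the T-like level in microglia. T-like Cd86 was 0.4 ± 0.126 (SD, n = 8).

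First it was asked whether microglia-like cells of the thalamus differed from those of the HPC. The make-up of this class differed too. DAM-like cells were 32.2%, 14.1%, 14.3% and 19.9% of it in thalamus sets 1 to 4 and 3.55%, 0.978%, 0.716% and 1.15% in HPC sets 1 to 4, and homeostatic-like cells were 2381 of 8266 cells against 6052 of 10698. A difference over the whole class therefore mixes the make-up with the level within a state, which is compared further on. H2-Aa was 0.417, 1.95, 0.477 and 2.07 UMIs per 10,000 in thalamus sets 1 to 4 and 0.294, 0.677, 0.206 and 0.866 in HPC sets 1 to 4. H2-Ab1 was 0.724, 2.04, 0.682 and 2.22 against 0.412, 0.933, 0.321 and 0.929. Sets 2 and 4 were high and sets 1 and 3 low in both regions, each thalamus set was above the HPC set of the same number, and the regions overlapped. H2-Eb1 gave 0.309, 1.25, 0.329 and 1.22 against 0.224, 0.555, 0.181 and 0.560, and Cd74 gave 2.19, 7.63, 2.09 and 6.82 against 1.24, 2.72, 0.960 and 3.24, with the same split of the sets. The set mean of H2-Aa was 1.23 ± 0.905 in the thalamus and 0.511 ± 0.313 in the HPC, and that of Cd74 was 4.68 ± 2.95 and 2.04 ± 1.11 (SD, n = 4 and 4).

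In edgeR's quasi-likelihood test with Benjamini-Hochberg adjustment over 12974 genes, 1 of the 10 members was higher in the thalamus, where 8.69% of all genes were higher, and 0 were lower, where 3.86% were. It was H2-DMa, the alpha chain of the peptide exchanger. Its levels were 2.2, 2.34, 2.26 and 2.32 in thalamus sets 1 to 4 against 1.77, 2.02, 2.12 and 1.93 in HPC sets 1 to 4, with no overlap, as held for 8.3% of 12796 genes with a mean of at least 1 CPM (a count scaled to library size). The log2 fold change of H2-DMa was 0.29 (SE 0.05, edgeR adjusted p = 0.00576), a small difference. For the class II chains and Cd74 the fold changes were larger and their errors larger still. H2-Aa gave 1.34 (SE 0.59, edgeR adjusted p = 0.163), H2-Ab1 1.20 (SE 0.46, adjusted p = 0.116), H2-Eb1 1.1 (SE 0.53, adjusted p = 0.195) and Cd74 1.27 (SE 0.50, adjusted p = 0.125). The members' median log2 fold change was 0.22, against -0.01 over all genes. Of all called genes 69.2% were higher in the thalamus, and 46.6% when sets were scaled to library totals rather than by TMM (trimmed mean of M-values) factors.

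With the set number as a block, which compares each thalamus set with the HPC set of its number, 6 members were higher in the thalamus, over a class with the DAM-like shares given above. The share of all genes called in this blocked fit is not given here, so the count of 6 has no background beside it. H2-Aa was then 1.23 higher on the log2 scale (SE 0.13, edgeR adjusted p = 9.655e-05), H2-Ab1 1.15 (SE 0.07, adjusted p = 2.596e-06), H2-Eb1 1.01 (SE 0.10, adjusted p = 7.709e-05), Cd74 1.20 (SE 0.09, adjusted p = 1.052e-05) and H2-DMb1 0.14 (SE 0.04, adjusted p = 0.0203), beside H2-DMa. The block takes out what sets of the same number share, such as the higher levels of sets 2 and 4. Without Malat1-poor cells the unblocked fold changes of H2-Aa, Cd74 and H2-DMa were 1.11, 1.04 and 0.21, and H2-DMa still passed (adjusted p = 0.0332).

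**Figure D2:**
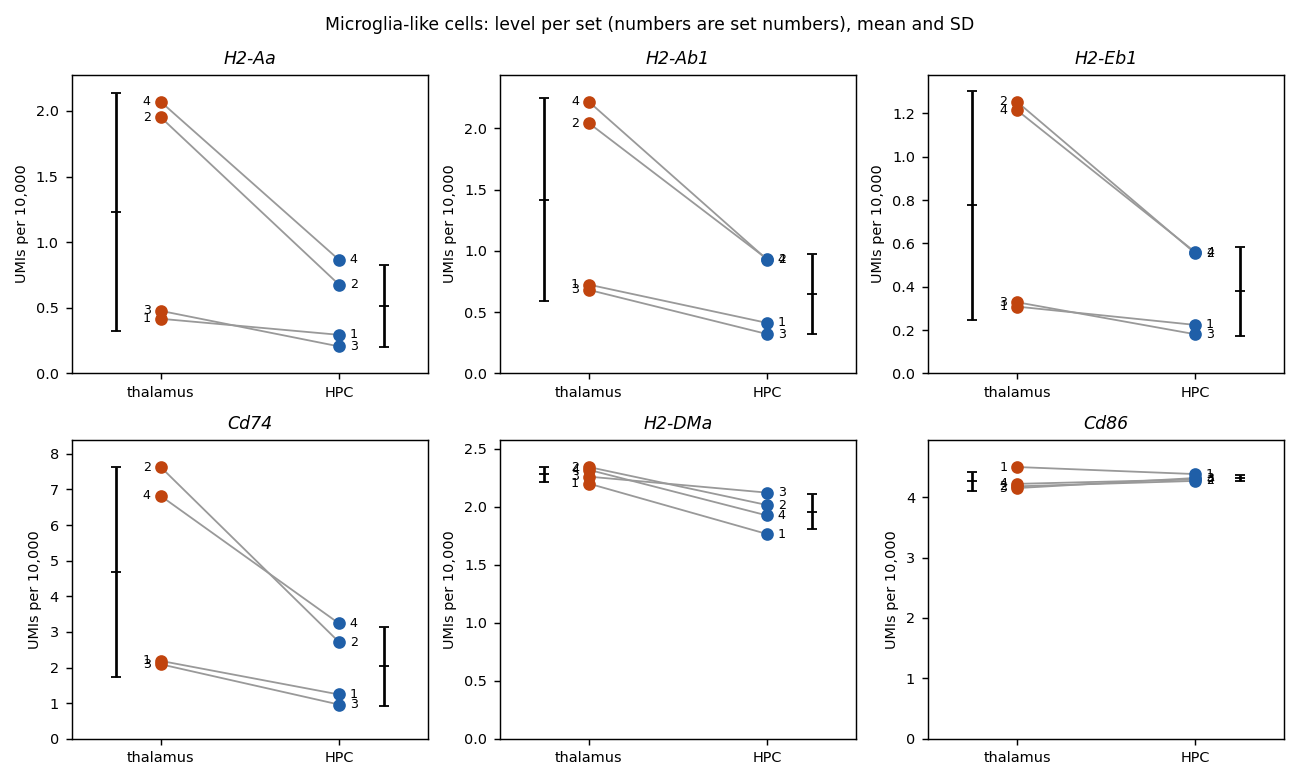
UMIs per 10,000 in microglia-like cells of each set (numbers beside points) for 6 members, with lines joining sets of the same number and bars giving the mean and SD of each region (n = 4 and 4). Sets 2 and 4 are high for the class II chains and Cd74 in both regions, H2-DMa does not overlap between the regions, and Cd86 is nearly level at 4.15 to 4.50.

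The other members differed less or were sparse. Cd86 was 4.50, 4.18, 4.15 and 4.22 in thalamus sets 1 to 4 against 4.38, 4.27, 4.32 and 4.29 in HPC sets 1 to 4, a log2 fold change of 0.05 with a 95% interval of -0.07 to 0.17 (edgeR adjusted p = 0.6). H2-DMb1 ran from 0.968 to 1.13 and from 0.890 to 1.05, higher on the thalamus side in 4 of 4 like-numbered pairs. Cd80 ran from 0.261 to 0.317 in the thalamus and from 0.299 to 0.410 in the HPC, lower on the thalamus side in 4 of 4 pairs, or -0.24 on the log2 scale (SE 0.11, edgeR adjusted p = 0.196). Cd40 and Ciita held 199 and 221 UMIs in all 18964 cells, and their fold changes of 0.03 (SE 0.50) and 0.13 (SE 0.55) say only that no difference was detectable at this depth.

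Next, DAM-like cells were compared with homeostatic-like cells of the same 7 sets, with the set as a block. HPC set 3, with 14 DAM-like cells, was left out. The class II chains and Cd74 were far higher in DAM-like cells. H2-Aa went from 0.129, 0.202, 0.147 and 0.268 to 0.771, 4.94, 1.00 and 5.67 in thalamus sets 1 to 4, and from 0.127, 0.266 and 0.428 to 0.288, 3.69 and 3.08 in HPC sets 1, 2 and 4. Cd74 went from 0.646, 0.917, 0.632 and 1.05 to 3.63, 19.4, 5.43 and 18.0, and from 0.565, 1.20 and 1.56 to 2.77, 17.9 and 9.85. Sets 2 and 4 again stood above sets 1 and 3, and the rise was seen in 7 of 7 sets for H2-Aa, H2-Ab1, H2-Eb1 and Cd74. The homeostatic-like starting levels of H2-Aa and H2-Eb1 were below the T-like level of the same set. That of H2-Ab1 was below it too, except in thalamus set 4 (0.394 against 0.293). The part of free RNA in these folds was not tested.

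Of the 10 members 8 were higher and 1 lower in DAM-like cells, where 25.2% and 22.2% of 11699 genes were. H2-Aa was higher by 3.77 on the log2 scale (SE 0.20, edgeR adjusted p = 8.118e-17), Cd74 by 3.62 (SE 0.17, adjusted p = 2.216e-18), H2-Eb1 by 3.40 (SE 0.24, adjusted p = 6.288e-14) and H2-Ab1 by 3.13 (SE 0.17, adjusted p = 1.113e-16). Ciita was higher by 2.39 (SE 0.46, edgeR adjusted p = 6.427e-05) and Cd40 by 1.8 (SE 0.67, adjusted p = 0.0267), each on few UMIs, 54 and 22 in DAM-like cells. Cd80, a ligand of Cd28, fell by 0.81 (SE 0.15, edgeR adjusted p = 2.139e-05) and was lower in 7 of 7 sets. The members' median log2 fold change was 2.09, against -0.02 over all genes tested.

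The remaining members turned on the scaling. With library totals in place of TMM factors, the median of all genes moved by -0.29 and the share of called genes that were higher fell from 53.2% to 25%. Cd86, at -0.06 (edgeR adjusted p = 0.582) with TMM, was then lower by 0.34 on the log2 scale (fold change -0.34, edgeR adjusted p = 2.771e-04), and its level per 10,000 was lower in DAM-like cells in 7 of 7 sets. H2-DMa at 0.47 (SE 0.09, adjusted p = 2.842e-05) and H2-DMb1 at 0.31 (SE 0.08, adjusted p = 0.00232) went to 0.18 (adjusted p = 0.0529) and 0.02 (adjusted p = 0.847) under edgeR with totals, and Cd40 to 1.51 (adjusted p = 0.0528). By level per 10,000 H2-DMa was higher in 5 of 7 sets and lower in 2, and H2-DMb1 was higher in 3 and lower in 4. The chains, Cd74, Ciita and Cd80 passed under either scaling, with H2-Aa at 3.51 and Cd74 at 3.36 with totals. H2-DMb1 also missed the threshold without thalamus set 2 (0.19) or thalamus set 4 (0.21), and Cd40 without thalamus set 1, 2 or 4 or HPC set 2 (1.46 to 1.87).

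**Figure D3:**
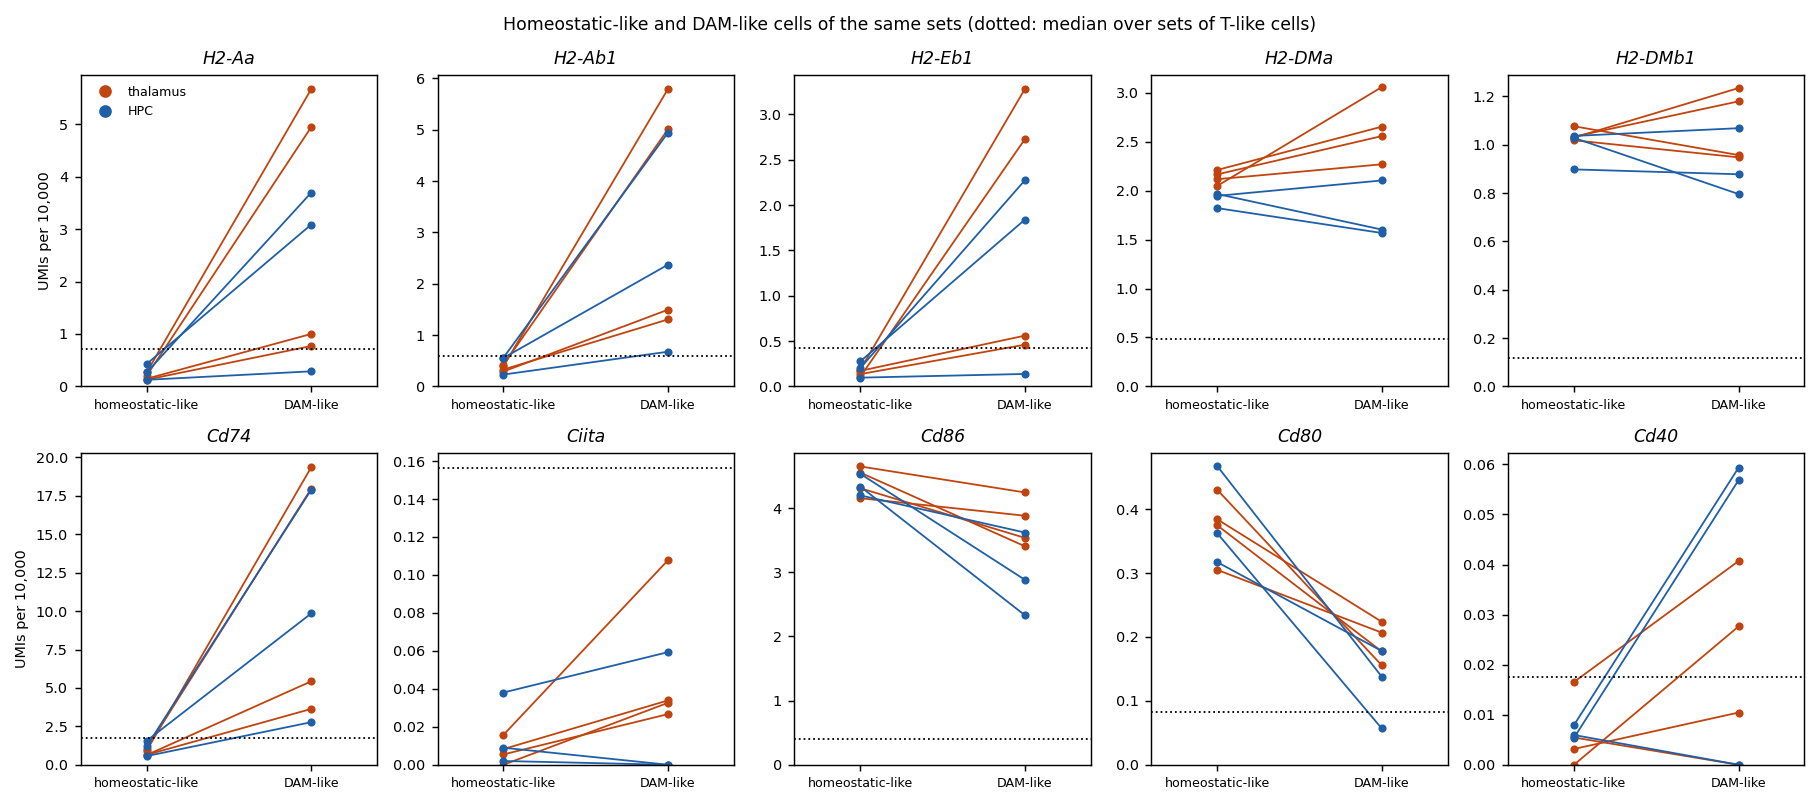
UMIs per 10,000 of the 10 members in homeostatic-like and DAM-like cells, with a line for each of the 7 sets coloured by region, and the median over sets of T-like cells dotted. H2-Aa, H2-Ab1, H2-Eb1 and Cd74 rise in every set by very different amounts, Cd86 and Cd80 fall in every set on this scale, and Ciita stays below the T-like median.

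In interferon-like cells the chains, Cd74 and Cd40 were higher than in homeostatic-like cells. This comparison shares its homeostatic-like sums with the one above. Cd40 held 38 UMIs in 466 interferon-like cells against 25 in 8433 homeostatic-like cells, was higher in 8 of 8 sets, and differed by 4.85 on the log2 scale (SE 0.59, edgeR adjusted p = 2.911e-09). Its interferon-like level rested on 1 UMI in thalamus set 2 and 1 in HPC set 2. In thalamus set 3 it was seen in 2.0% of 50 cells and in HPC set 3 in 5.0% of 20. Cd74 was 3.52, 3.41, 3.04 and 7.25 in interferon-like cells of thalamus sets 1 to 4 and 1.68, 4.38, 0.964 and 8.05 in those of the HPC, higher in 8 of 8 sets by 2.25 on the log2 scale (SE 0.13, edgeR adjusted p = 9.321e-21). H2-Aa was higher by 2.13 (SE 0.20, edgeR adjusted p = 6.620e-13) in 7 of 8 sets. Against T-like cells of the same set, interferon-like H2-Aa was lower in 4 of 8 sets (thalamus sets 1 and 2, HPC sets 1 and 3). Cd74 was lower in 2 (thalamus set 1, HPC set 3), whereas Cd40 was above the T-like value in 8 of 8. The lower levels are not read as expression, but whether they are background was not tested. Without matching for depth, Cd74 was seen in 56.1% of interferon-like and 22.7% of T-like cells of thalamus set 1. H2-Aa was seen in 16.7% and 7.35% there, 10.7% and 5.055% in thalamus set 2, and 10.6% and 5.29% in HPC set 1. In HPC set 3 H2-Aa was seen in a smaller share of interferon-like than of T-like cells. In all, 6 of 9 members tested were higher and 1 was lower, where 13.3% and 9.22% of 10328 genes were. The other members called were H2-Eb1 (1.84), H2-Ab1 (1.61), Cd86 (0.26, edgeR adjusted p = 0.0303) and, lower, Cd80 (-0.70, adjusted p = 0.0340). Cd86 lost its call with library totals (0.12, edgeR adjusted p = 0.326), under which the median of all genes moved by -0.15 and the share of higher calls fell from 59.1% to 36.1%, and also without thalamus set 1 or 4 or HPC set 2 or 4 (0.20 to 0.25). Cd80 lost its call without thalamus set 1 or 4 or HPC set 1, 2 or 3 (-0.68 to -0.54). H2-DMa and H2-DMb1 gave 0.22 (edgeR adjusted p = 0.164) and 0.02 (adjusted p = 0.948).

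The regions were then compared within a state. In DAM-like cells H2-Aa was 0.771, 4.94, 1.00 and 5.67 in the thalamus sets against 0.288, 3.69 and 3.08 in HPC sets 1, 2 and 4, with partial overlap (HPC set 1 below every thalamus set, thalamus sets 2 and 4 above every HPC set), and the fold change was 0.91 on the log2 scale (SE 0.77, edgeR adjusted p = 0.748). H2-DMa was 2.27, 2.65, 2.56 and 3.06 against 1.57, 2.10 and 1.60, with no overlap. It was the 1 member called of 8 tested (0.63, SE 0.14, edgeR adjusted p = 0.0274), where 0.916% of 9499 genes were higher and 0.832% lower. The call was lost without Malat1-poor cells (0.47, edgeR adjusted p = 0.202) and without thalamus set 2 or 4 or HPC set 1 or 4 (0.52 to 0.63). With the set number as a block 6 members were higher in the thalamus, among them H2-Aa (0.84, SE 0.15, edgeR adjusted p = 1.645e-05), Cd74 (0.46, SE 0.10, adjusted p = 3.919e-04) and Cd86 (0.45, SE 0.13, adjusted p = 0.0218). The shares of 0.916% and 0.832% belong to the unblocked fit, and that of all genes in the blocked fit is not given here. Thalamus set 3 had no HPC partner here, so the blocked difference rests on the pairs of sets 1, 2 and 4 only. In the unblocked fit the H2-Aa difference was -0.13 without HPC set 1, which left HPC sets 2 and 4 alone on the HPC side. By pairs, H2-Aa was higher on the thalamus side in sets 1, 2 and 4 alike. The HPC sets rested on 124, 31 and 24 cells.

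In homeostatic-like cells 0 of 8 members tested were called, where 1.11% of 11479 genes were higher and 0.68% lower at the adjusted threshold, and 855 and 745 at an unadjusted p under 0.05, among them 1 member, H2-DMa. H2-Aa was 0.129 to 0.268 in the thalamus and 0.127 to 0.428 in the HPC, or -0.38 on the log2 scale (SE 0.33, edgeR adjusted p = 0.686), and Cd74 gave -0.31 (SE 0.27, adjusted p = 0.675). With the set number as a block Cd74 was lower in the thalamus (-0.32, SE 0.08, edgeR adjusted p = 0.0245), and it took the other sign, 0.36, when clusters replaced the gate. No member kept its thalamus sets above every HPC set here, as 4.97% of 12704 genes did.

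The difference between the states itself was then compared between the regions. H2-Aa rose more in thalamic DAM-like cells, by 1.20 on the log2 scale (SE 0.32, edgeR adjusted p = 0.0454), the 1 member called of 10, where 0.727% of 11699 genes were higher and 0.171% lower. H2-Ab1 gave 0.92 (SE 0.27, edgeR adjusted p = 0.107), H2-DMa 0.56 (SE 0.16, adjusted p = 0.0839) and Cd74 0.76 (SE 0.25, adjusted p = 0.177). The H2-Aa call was lost with clusters in place of the gate (0.28, edgeR adjusted p = 0.815), without Malat1-poor cells (0.82, adjusted p = 0.381), with library totals (1.09, adjusted p = 0.133) and without thalamus set 2 or 4 or HPC set 1 or 4 (0.73 to 1.16). Of the genes called, 81.0% were higher in the thalamus with TMM factors and 67.1% with library totals.

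**Figure D4:**
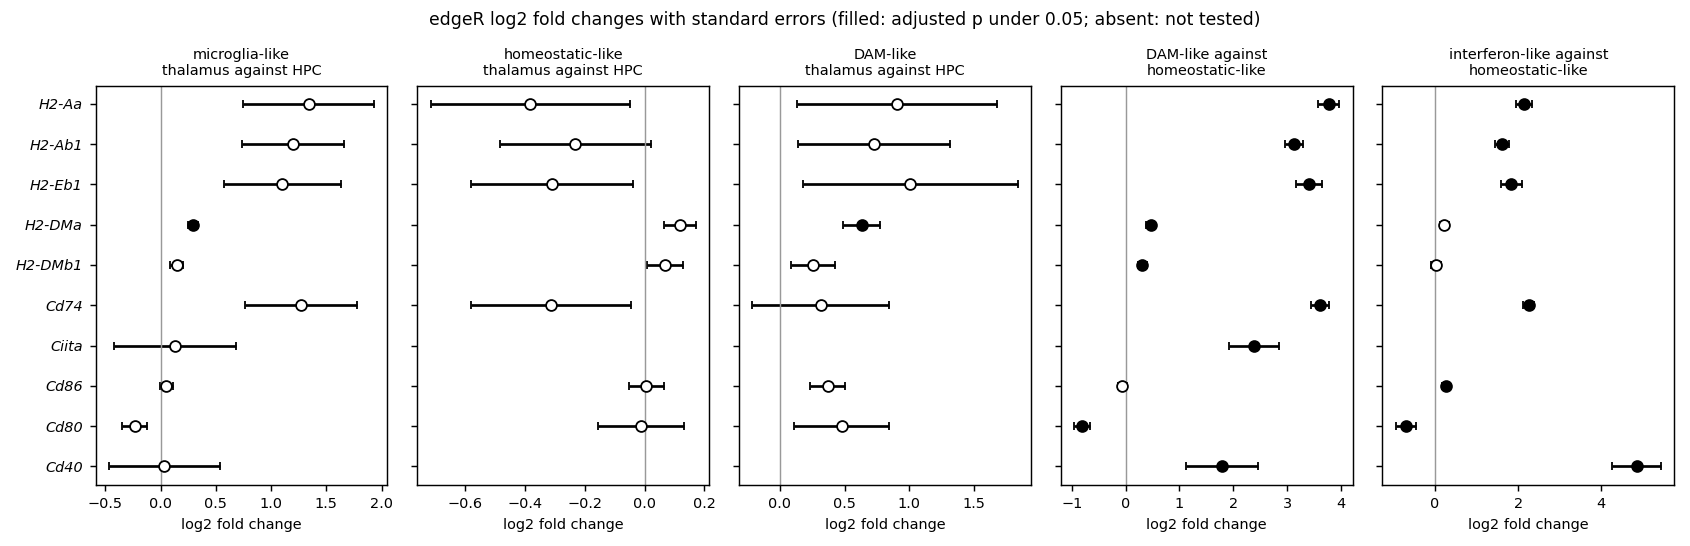
Log2 fold changes of the members with their standard errors from edgeR in 5 comparisons, with filled points at an adjusted p under 0.05 and members that were not tested left out; each panel has its own axis. Between the regions H2-DMa is filled in microglia-like and DAM-like cells, and between the states the class II chains and Cd74 are filled at 1.61 to 3.77.

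In sets 2 and 4 of each region a small number of cells held most of the class II chain UMIs of microglia-like cells. In sets 1 and 3 such cells held 17.3% to 47.4% of them. Cells with at least 10 UMIs of H2-Aa, H2-Ab1 and H2-Eb1 together, a limit chosen after the counts had been seen, numbered 393 of 18964. They were 1.00%, 4.94%, 1.13% and 5.79% of the microglia-like cells of thalamus sets 1 to 4 and 0.286%, 1.55%, 0.358% and 2.88% in HPC sets 1 to 4. They held 34.6%, 76.0%, 47.4% and 80.5% of the chain UMIs in the thalamus sets and 42.6%, 59.0%, 17.3% and 66.8% in the HPC sets. In each region sets 2 and 4 had both the larger share of such cells and the larger share of chain UMIs in them.

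These 393 cells held H2-Aa at 21.6 UMIs per 10,000, Cd74 at 64.2, H2-DMa at 4.28 and Ciita at 0.468, against 0.241, 1.46, 2.02 and 0.0115 in the other microglia-like cells. The chains chose the cells, and Cd74, H2-DMa and Ciita did not. Cd86 was 3.93 and 4.31. DAM-like cells were 47.1% of them and 9.32% of the others, and 37.7% were intermediate. Marker lists of other cells were low in most of them. The macrophage and the monocyte list each had a median of 0 (means 0.983 and 0.657, against 0.288 and 0.171 in the other microglia-like cells and 15.6 and 41.6 in macrophage- or monocyte-like cells), the dendritic list a median of 1.91 UMIs per 10,000 against 2.59 in the other microglia-like cells and 17.2 in dendritic-like cells, and the microglial list a median of 140 against 195 and 7.01. Their median doublet score was 0.0617 against 0.0811, and 3.05% against 3.04% were among the highest 5% of scores. The part of other cells in these values was not tested. Their median depth was 6047 UMIs against 4659.

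**Figure D5:**
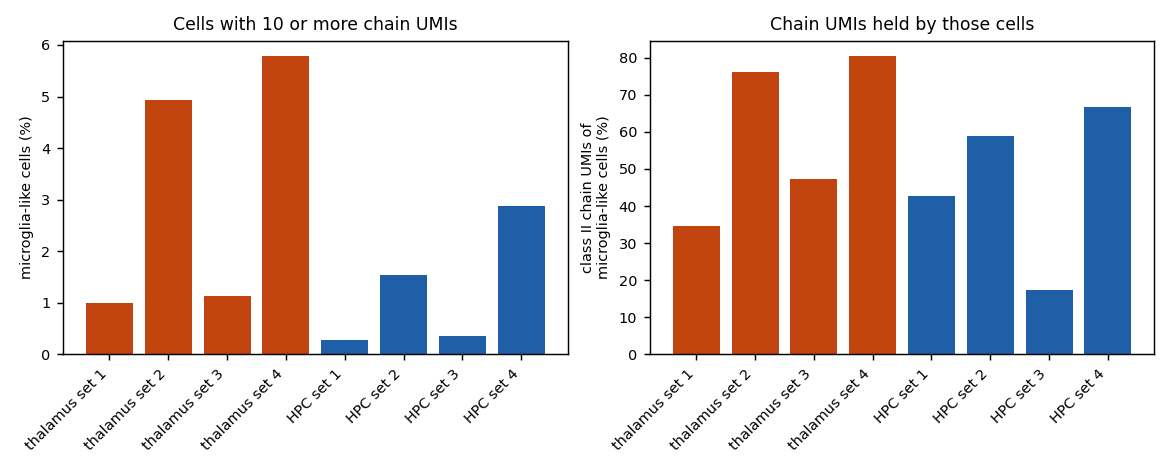
Share (%) of microglia-like cells with at least 10 class II chain UMIs (left) and share (%) of all chain UMIs of microglia-like cells that those cells held (right), as bars for each of the 8 sets coloured by region. Sets 2 and 4 of either region have the tallest bars, with thalamus set 4 at 5.79% of cells and 80.5% of chain UMIs.

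The share of microglia-like cells with any class II chain UMI was closer between the regions than the levels were. That applies to a limit of 1 UMI. At 3 or more chain UMIs the means were 5.07% ± 3.55 in the thalamus and 2.415% ± 1.68 in the HPC (SD, n = 4 and 4; exact permutation p = 0.257). Each cell was thinned to 2900 UMIs, and 1128 thalamus and 766 HPC cells below that were left out. A chain UMI was then found in 17.9% to 26.5% of cells per thalamus set and in 12.8% to 20.2% per HPC set, means of 22.3% ± 4.01 and 16.4% ± 3.68 (SD, n = 4 and 4; two-sided exact permutation p = 0.143, adjusted p = 0.143 over 4 shares). Without thinning the pooled shares were 31.9% and 23.6%. In T-like cells thinned alike the share was 14.5% and 11.4% (median depths 3436 and 3969 UMIs before thinning, against 4608 and 4725.5 in microglia-like cells), a share taken as a reference whose source was not tested. A Cd74 UMI was found in 29.8% ± 5.89 and 19.3% ± 4.11 (exact permutation p = 0.0571, adjusted p = 0.114), an H2-DMa UMI in 45.7% ± 1.08 and 41.6% ± 2.60 (exact permutation p = 0.0571, adjusted p = 0.114) and a Cd86 UMI in 64.9% ± 1.45 and 67.0% ± 0.444 (exact permutation p = 0.0857, adjusted p = 0.114; SD, n = 4 and 4). The smallest p this design allows is 0.0286. Taken by like-numbered pairs, which these tests did not use, the chain, Cd74 and H2-DMa shares were higher on the thalamus side in 4 of 4 pairs and the Cd86 share lower in 4 of 4. DAM-like cells gave a chain UMI in 36.1% (thalamus) and 24.2% (HPC) and homeostatic-like cells in 16.6% and 15.3%.

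Genes that work with the members were counted by lists. Of 10 tested genes of peptide loading and proteolysis (11 in the files), 6 were higher and 2 lower in DAM-like than in homeostatic-like cells, where 25.2% and 22.2% of all genes were, led by Ctsl, a cathepsin that cuts Cd74 (log2 fold change 1.64, edgeR adjusted p = 2.539e-13), March1, a ligase that removes class II from the surface (-1.01, adjusted p = 6.653e-13), the thiol reductase Ifi30 (0.76, adjusted p = 3.330e-08) and the cathepsin Ctss (0.61, adjusted p = 3.869e-07). Of 13 tested genes of transcriptional control and interferon-gamma signalling 2 were higher and 3 lower, with the interferon-gamma receptor chain Ifngr1 at -0.89, a share no higher in the upward direction than that of all genes. Of 6 other costimulatory ligands and maturation genes 4 were higher and 1 lower, among them the checkpoint ligands Pdcd1lg2 (2.58) and Cd274 (1.70), the maturation gene Cd83 (1.62) and, lower, Icosl (-1.31). Of the partners on T cells, 2 could be tested and Lag3, a class II receptor that microglia also held, was higher (1.11). The lists' medians were 0.27, -0.12, 1.46 and 0.81.

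In interferon-like cells 5 of 9 loading genes were higher and 1 lower, 3 of 13 control genes higher and 1 lower, and 3 of 4 costimulatory genes higher, where 13.3% and 9.22% of all genes were. Among them were Sppl2a, which cuts the last stub of Cd74 (0.90), Ctsl (0.86), Irf1 (1.08) and Cd274 (2.12). Between the regions fewer list genes moved. In microglia-like cells Cd83 (1.14, edgeR adjusted p = 0.00313), the T cell ligand Tnfsf9 (1.15, adjusted p = 0.0129) and Ctsl (0.89, adjusted p = 0.0216) were higher in the thalamus and Icosl (-0.35, adjusted p = 0.0361) lower. In DAM-like cells Lag3 (0.88), Ctsl (0.85) and Cd83 (0.78) were higher and Ifi30 (-0.59) lower, and in homeostatic-like cells Cd83 (0.60) was higher. In the comparison of the state difference between regions Lag3 (1.42) and Ctsl (0.96) were higher in the thalamus.

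The genes most like the class II chains and Cd74 were found by the correlation of log2 CPM with their mean standardised level. Over 33 sums of a set and a class, which share libraries, depth and the contrast of cell types, the 10 highest of 10865 genes outside the group were Rnd3 (r = 0.925), Clec10a (0.917), Nostrin (0.900), Cd300lg (0.894), Gm20513 (0.891), Kmo, Cd209a and Ms4a4c (each 0.890), Hepacam2 (0.885) and Ifi205 (0.884). Clec10a and Cd209a are dendritic markers of the gate, and Gm20513 is the antisense neighbour of H2-Eb1. Among the members Ciita reached 0.929, Cd40 0.903, H2-DMa 0.850 and H2-DMb1 0.831, whereas Cd86 reached 0.327 and Cd80 0.188. Over 33 sums of a set and a microglial state the highest of 9830 genes included Hpse (0.777), Myo5a (0.760), Etl4 (0.759), Mdfic (0.743), Pvt1 (0.733), Cacna1s (0.732), Gas2l3 (0.724), and Itgax and Synj2 (each 0.712). Cd86 (-0.309) and Cd80 (-0.301) then ran opposite to the chains, and H2-DMb1 (0.392), H2-DMa (0.297) and Cd40 (0.115) followed them weakly.

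Outside the microglia, the regions were compared in T-like and neutrophil-like cells. In T-like cells 0 of 9 members tested were called, where 0.107% of 9337 genes were higher and 0.0321% lower (330 and 332 at an unadjusted p under 0.05, among them 1 member). That was Cd80, which gave -0.71 (edgeR adjusted p = 0.629), whereas H2-DMb1 gave 1.04 (adjusted p = 0.703). Of the lists, Ctsl (1.58, edgeR adjusted p = 0.0235) was higher in thalamic T-like cells. Ctsl was also higher in thalamic microglia-like cells, and the part of free RNA in the T-like value was not tested. In neutrophil-like cells 0 of 2 members tested were called, where 0.067% of 2983 genes were higher and 0.0% lower (58 and 43 at an unadjusted p under 0.05, among them 1 member, Cd74). Cd74 was 10.9 in those of thalamus set 1 and 0.578 to 1.95 in the other 5 sets with at least 20 cells. The T-like gate did not ask for Cd4, so it was not limited to the CD4 T cells that class II serves. T-like cells were 13.6%, 17.5%, 5.83% and 21.7% of the kept cells in thalamus sets 1 to 4 and 15.4%, 6.28%, 1.59% and 5.97% in HPC sets 1 to 4. Their Ifng, the inducer of Ciita, was 0.652, 0.570, 0.299 and 0.195 UMIs per 10,000 and 0.403, 0.341, 0.270 and 0.267. The T-like share was thus highest in sets 2 and 4 of the thalamus but in set 1 of the HPC, and T-like Ifng was highest in set 1 of either region.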

How the data were processed

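Single-cell RNA of CD45-positive cells was measured in 4 tagged sets per region. The deposited values are raw UMI counts per gene and cell, made by the authors with Cell Ranger (7.1.0 per the file headers, an earlier version in the study's methods) on GRCm38, with no normalization. Whether introns were counted was not stated. Multiplexing oligo rows were left out of totals and tests. Cells were kept at 200 to 7500 genes and at most 2% mitochondrial counts, and 0 barcodes were shared between sets of a region (65 between the regions). Doublets were kept, and an alternative dropped the highest 5% of Scrublet scores (scanpy 1.11.5). Classes and states were gated by marker genes, with limits set after seeing the marker scores. The members and lists were chosen with earlier results of these data known. All members were named, and of each list at most the 4 largest changes among called genes, except for items that are not reported here.

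Counts were summed per set and label (at least 20 cells) and tested with edgeR 4.0.16 (TMM, filterByExpr, glmQLFit, glmQLFTest; R 4.3.3), with p-values adjusted by Benjamini-Hochberg across every gene in the fit and called under 0.05. For the states, the set entered as a block. Shares were compared by two-sided exact permutation over 70 assignments (scipy 1.17.1). The scripts were tested on simulated data. Sets carry numbers 1 to 4 in the names of the matrices. Over 12974 genes the deviations of same-numbered sets from their region's mean correlated at 0.52, 0.14, 0.48 and 0.18, each over 0.1, so the numbers were taken to pair the sets, although HPC set 2 correlated slightly better with thalamus set 3 (0.18). The alternatives were DESeq2 1.42.0, no filter on low counts, a 5% mitochondrial limit, a stricter gate, clusters (Seurat 5.3.0) for the gate, the replicate block, leaving out each set, and, chosen after seeing the data, leaving out Malat1-poor cells, library totals for TMM and those of the state difference between regions. Shares and intervals cover counting or set error only.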

Additional observations from a re-analysis of the deposited data

Results flagged for a closer look

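Ciita in DAM-like cells of thalamus set 4 stood at 0.1078 UMIs per 10,000, far from the other thalamus sets, of which the nearest was 0.0339. It rested on 31 UMIs. H2-Ab1 and H2-Eb1 in T-like cells of HPC set 3 stood at 2.898 and 3.571 UMIs per 10,000, far from the nearest HPC sets at 0.595 and 0.440. That set held 33 T-like cells, with 43 and 53 UMIs of these genes. In all 65 groups of 4 sets were looked at in this way and 3 stood out, while chance sets apart about 1 in 20 groups. The rise of H2-Aa from homeostatic-like to DAM-like cells differed between the regions by 1.205 on the log2 scale (edgeR adjusted p = 0.0454). That call was lost with clusters in place of the gate (0.28), without Malat1-poor cells (0.82), with library totals (1.09) and without thalamus set 2 or 4 or HPC set 1 or 4 (0.73 to 1.16). The causes were not tested.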

How the results depend on the processing

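Of the values of whole comparisons recomputed under another setting, 76 stayed close (within 1.5 times for a count) and 21 moved, and of those of single members 671 kept direction and side of the threshold, 29 passed it newly, 33 missed it and 41 changed sign. With the replicate block, 6 members were called in microglia-like cells, 6 in DAM-like cells and 1 in homeostatic-like cells between the regions. No other call changed in these 3 comparisons, and without the block 7 members were called between the DAM-like and homeostatic-like states, where Ciita and Cd40 were not tested. With no filter on low counts the counts were 6 in DAM-like and 1 in homeostatic-like cells, and 5 for the state difference between regions. Without Malat1-poor cells 0 were called in DAM-like cells and 0 for the state difference, and clusters for the gate and library totals also left 0 there. Leaving out a set gave 0 to 1 members in DAM-like cells and 0 to 4 for the state difference. The cause of these moves was not tested. The shares of all genes called under these settings are not given here. A stricter gate left too few HPC sets of DAM-like cells and was not run.

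Changes of sign were as follows, as log2 fold changes. In microglia-like cells Cd40 was -0.0362 without Malat1-poor cells and -0.0363 with library totals, Cd86 -0.0176 with totals and Ciita -0.0702 with the stricter gate, and leaving out a set gave -0.44 to 0.43 for Cd40 and -0.29 to 0.80 for Ciita. In DAM-like cells Cd80 was -0.16 with clusters, and leaving out a set gave -0.13 to 1.69 for H2-Aa, -0.10 to 1.62 for H2-Ab1, -0.22 to 1.83 for H2-Eb1 and -0.25 to 1.1 for Cd74. In homeostatic-like cells clusters gave 0.0619 for H2-Ab1, 0.19 for H2-Aa, 0.11 for H2-Eb1 and 0.36 for Cd74, Cd86 was -0.0224 with no filter, Cd80 0.030 with the replicate block and H2-DMb1 -0.0014 with the stricter gate, and leaving out a set gave -0.0186 to 0.0384 for Cd86 and -0.0765 to 0.11 for Cd80. Between the states Cd86 was 0.035 in DAM-like cells with the stricter gate, H2-DMb1 -0.13 in interferon-like cells with totals (-0.0769 to 0.0587 without a set), and for the state difference Cd86 was -0.0051 with clusters and Cd40 -1.56 to 0.56 without a set. Ciita and Cd40 were limited by depth in every microglial state.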

Other observations

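Cells that the gate put in no class were rich in these genes. The 714 ungated cells held H2-Aa at 28.7 and Cd74 at 73.5 UMIs per 10,000, between B-like and macrophage- or monocyte-like cells in H2-Aa. Per set, H2-Aa of ungated cells ran from 6.6 to 52.7, and Ciita from 0.175 to 2.08. The 633 cells with markers of several classes held H2-Aa from 0.220 to 10.9 and Cd74 from 1.32 to 27.7 per set. Cycling microglia-like cells reached 20 cells in 2 sets, with H2-Aa at 0.493 and 0.990 and H2-DMa at 2.98 and 2.88. In thalamus set 4, below 20 cells, H2-Aa was 8.30 and Cd74 25.2 on 74 and 225 UMIs.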
